A study of Mus musculus with 8 samples.

Results

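Genes of the goblet cell programme and the membrane mucins were followed in mouse colon cancer organoids grown without and with epidermal growth factor (EGF). The 10 genes, chosen by name from the 32728 genes of the count table, were the transcription factors Atoh1, Gfi1, Spdef and Creb3l1, the mucus genes Agr2 and Tff3, and the membrane mucins Muc1, Muc4, Muc13 and Muc20. Each had 1 identifier in the table. Muc2, the main secreted mucin of the colon, was not analysed here.

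Goblet cells are the mucus-secreting cells of the gut epithelium. ATOH1 commits a progenitor to the secretory lineages when Notch signalling is low, and GFI1, SPDEF and CREB3L1 act after it in goblet cells, where the secreted mucins are folded in the endoplasmic reticulum with the help of AGR2 and released together with the trefoil peptide TFF3. The membrane mucins stay anchored in the apical membrane and coat absorptive and secretory cells alike, so their genes do not mark goblet cells alone.

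The organoids, named APS, carried knockouts of Apc, p53 (Trp53) and Smad4 made by CRISPR in cells of C57BL/6 mice, and these were shared by all groups. The lines were CTO19, labelled male, and apsMC706, labelled female, which the submitters regard as 2 biological replicates. The noEGF groups had EGF left out from day 0 and were collected after 7 days, while the EM groups had medium with B27, noggin, galunisertib (an inhibitor of the TGF-beta receptor) and EGF and were collected after 3 days. Each of the 4 groups (CTO19 noEGF, CTO19 EM, apsMC706 noEGF and apsMC706 EM) had 2 libraries of poly(A) RNA. The labels do not say whether these came from separate cultures. In the tests on the 4 group means, p-values therefore measure variation between libraries, which may be technical. The model with terms for line and medium alone, used over both lines, counts unequal responses of CTO19 and apsMC706 as residual variation too. Its biological coefficient of variation was 16.9%, against 4.27% for the 4 group means. Days in culture cannot be told apart from EGF, nor sex from line, and each line is a single line.

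Libraries held 35650262 to 38953838 counts. Levels are given as CPM, counts scaled to a common library size with library factors, and 3 counts, the limit that a count of 0 allows, came to 0.0745 to 0.0868 CPM. The mitochondrial share of counts was 4.13 to 5.19% in noEGF and 2.94 to 3.68% in EM libraries. Of 10 proliferation genes, 10 passed as lower in noEGF in each line, against 33.3% of all tested genes in CTO19 and 33.1% in apsMC706. Transcripts of the targeted genes were still read in every library, with Apc at 59.8 to 78.2 CPM in CTO19 and 177.0 to 198.0 CPM in apsMC706, Trp53 at 28.4 to 33.3 and 13 to 16.4 CPM in the same order, and Smad4 at 10.8 to 19.1 and 33.7 to 39.9 CPM. Both lines expressed epithelial genes, with summed levels of 3100.0 to 4040.0 CPM in CTO19 and 3490.0 to 3680.0 CPM in apsMC706 over 9 of 9 markers. The intestinal factors Cdx2 and Hnf4a were lower in CTO19, with Cdx2 at 0.861 to 2.30 CPM in CTO19 and 9.23 to 10.2 CPM in apsMC706, and Hnf4a at 0.0289 to 0.969 CPM and 52 to 71.6 CPM in the same order. Cdx1, another such factor, had at most 4 counts in any library of either line and did not set the lines apart. Squamous markers set the lines further apart. Summed over 15 of 15 such genes, they came to 8500.0 to 9600.0 CPM in CTO19 and 92.2 to 118.0 CPM in apsMC706. None of the squamous markers was at 0 in all libraries. CTO19 carries a colon label, and its origin was not tested. These levels stand beside every difference between the lines given here.

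The starts of the membrane mucin genes, which were higher in apsMC706 noEGF than in apsMC706 EM, are shown with that of Atoh1, which was lower there. The windows hold 250 bases before and 50 bases after a RefSeq start on GRCm38.p6, read 5′ to 3′ on the gene's strand, with every E-box (CANNTG, the core to which ATOH1 and other bHLH factors bind) in capitals.
Atoh1: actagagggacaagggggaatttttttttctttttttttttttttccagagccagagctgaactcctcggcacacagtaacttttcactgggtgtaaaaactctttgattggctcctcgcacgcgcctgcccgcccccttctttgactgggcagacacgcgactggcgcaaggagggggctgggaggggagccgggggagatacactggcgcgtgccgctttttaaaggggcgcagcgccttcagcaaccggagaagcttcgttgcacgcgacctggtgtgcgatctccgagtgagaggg
Muc1: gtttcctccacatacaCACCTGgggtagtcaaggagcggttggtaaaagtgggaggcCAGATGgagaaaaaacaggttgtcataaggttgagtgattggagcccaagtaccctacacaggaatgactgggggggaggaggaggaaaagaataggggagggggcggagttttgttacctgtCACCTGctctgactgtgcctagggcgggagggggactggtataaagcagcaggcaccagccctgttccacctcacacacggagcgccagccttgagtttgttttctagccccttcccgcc
Muc4: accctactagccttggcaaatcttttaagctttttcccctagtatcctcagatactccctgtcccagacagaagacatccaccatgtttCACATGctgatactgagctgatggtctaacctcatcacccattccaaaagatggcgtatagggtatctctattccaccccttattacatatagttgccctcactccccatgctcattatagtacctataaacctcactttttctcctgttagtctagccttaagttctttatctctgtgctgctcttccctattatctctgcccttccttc
Muc20: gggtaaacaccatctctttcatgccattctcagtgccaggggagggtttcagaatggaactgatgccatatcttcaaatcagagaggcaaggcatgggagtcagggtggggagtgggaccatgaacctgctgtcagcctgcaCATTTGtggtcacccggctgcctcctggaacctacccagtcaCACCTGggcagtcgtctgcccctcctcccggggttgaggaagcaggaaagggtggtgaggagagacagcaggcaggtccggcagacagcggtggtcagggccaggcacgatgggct
Muc13: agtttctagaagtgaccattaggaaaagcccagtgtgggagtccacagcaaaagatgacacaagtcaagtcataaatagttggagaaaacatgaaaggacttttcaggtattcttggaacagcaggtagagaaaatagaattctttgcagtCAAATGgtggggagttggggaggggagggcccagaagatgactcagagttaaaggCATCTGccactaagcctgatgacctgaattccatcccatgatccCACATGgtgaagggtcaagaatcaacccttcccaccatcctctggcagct
The window of Atoh1 is chr6:64728875-64729174 on the plus strand. That of Muc1 is chr3:89228806-89229105 (plus), that of Muc4 chr16:32735636-32735935 (plus), that of Muc20 chr16:32797386-32797685 (minus) and that of Muc13 chr16:33793787-33794086 (plus). The table held windows for 8 of the 10 genes. The pattern CANNTG reads the same on both strands. In the windows shown it matched 3 times in Muc1 and Muc13, 2 times in Muc20, 1 time in Muc4 and 0 times in Atoh1. Another window of Muc13, at chr16:33794239-33794538 and not shown, held 2 matches. Of all 32851 promoter windows, 72.3% held the pattern. The 6 letters CAGCTG, 1 form of it found in 16.3% of windows, occurred in none of the 8 members' windows. The letters TATAAA on either strand were in the windows of Muc1 and Muc4 and in 13.6% of all windows. These matches describe the letters and are not evidence of binding.

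**Figure D1:**
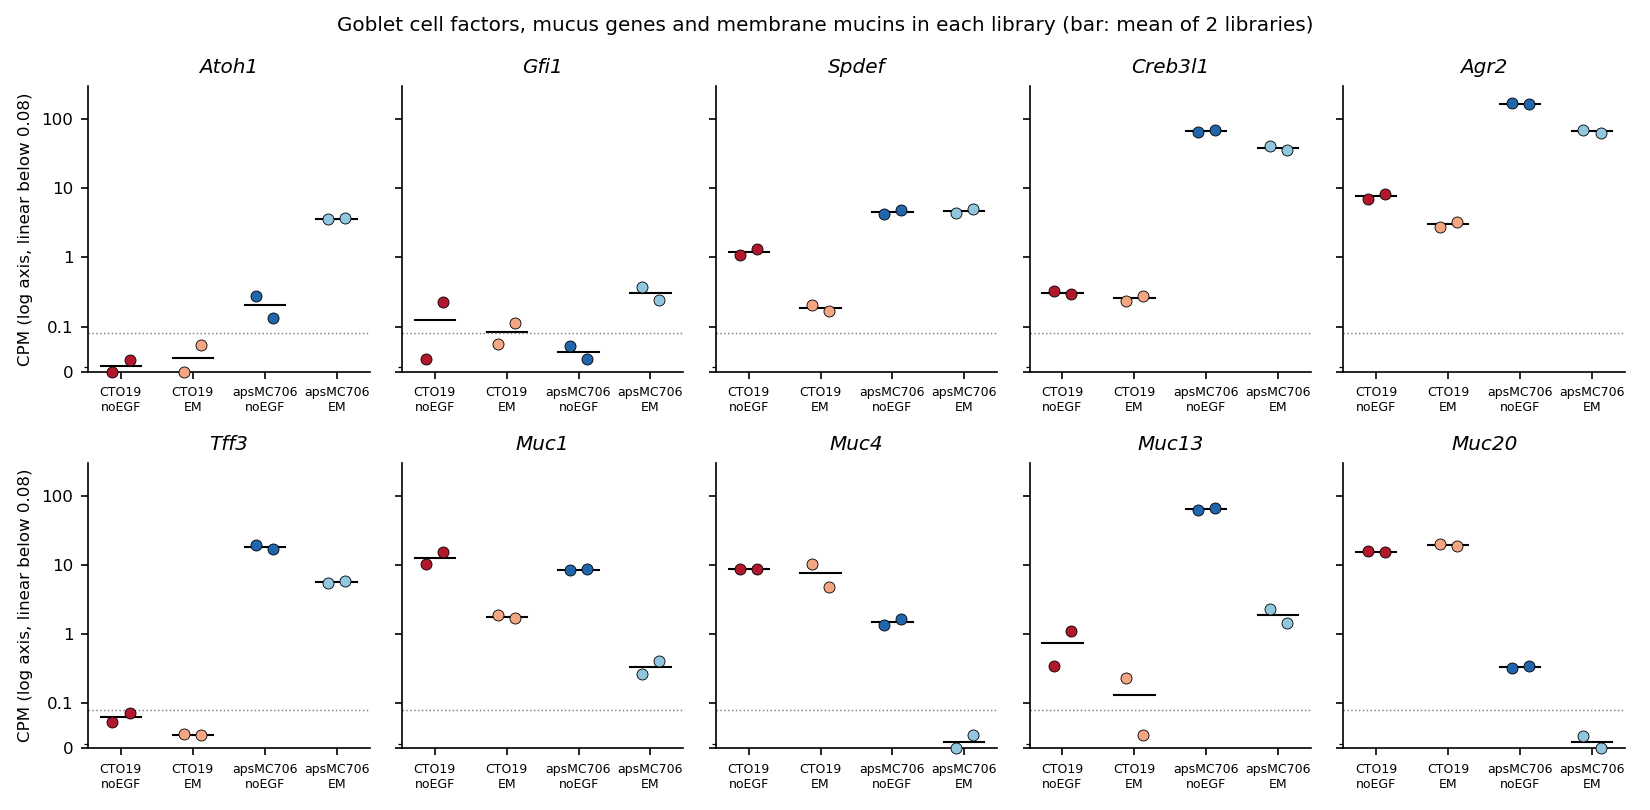
Level of each of the 10 genes in every library, in CPM on a log axis that is linear below 0.08 (dotted line, about 3 counts). Points are libraries and bars the mean of 2; Creb3l1, Agr2, Tff3 and Muc13 were highest in apsMC706 noEGF, and Muc20 was above 15 CPM in all CTO19 libraries and below 0.35 CPM in all apsMC706 libraries.

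Which genes differed between the media was asked first over both lines and then in each. Each test was the quasi-likelihood F-test of edgeR, adjusted by Benjamini-Hochberg over 16719 genes, and 9 of the 10 genes passed the filter on low counts; Gfi1 did not. Over both lines, 5 of the 9 were higher in noEGF and 1 was lower, where 48.8% of all tested genes passed (25.5% higher and 23.3% lower). In CTO19, 3 were higher and 1 lower, against 68.0% of all tested genes (34.7% higher and 33.3% lower). In apsMC706, 7 were higher and 1 lower, against 67.2% (34.1% higher and 33.1% lower). The lower gene there and over both lines was Atoh1, which passed the filter through apsMC706 EM alone. The responses of the lines differed for 4 of the 9, higher in CTO19 for 1 and lower for 3, where 56.0% of all tested genes passed that test (30.4% higher and 25.6% lower). With the libraries of each group summed, which leaves 1 residual degree of freedom, none of the 9 passed over both lines (5 at an unadjusted p under 0.05). The median log2 fold change of the 9 genes was 1.33 over both lines, where that of all tested genes was 0.03.

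Atoh1, the factor that starts the secretory lineages, fell in apsMC706. It had 10 and 5 counts in the noEGF libraries and 135 and 135 counts in the EM libraries of apsMC706, or 0.273 and 0.132 CPM against 3.57 and 3.68 CPM. The groups did not overlap, and the fall was 17.7-fold (log2 fold change -4.15, SE 0.427, adjusted p = 2.79e-08). Atoh1 passed the filter on low counts through apsMC706 EM alone, so in apsMC706 it could only come out lower in noEGF. In CTO19 it had 0 and 1 counts in noEGF and 0 and 2 counts in EM, which is at or under the limit in every library, so that no fold is given. The result over both lines (log2 fold change -3.95, adjusted p = 0.00093) rests on apsMC706. In organoids, fewer cells that express a gene and less of its RNA per cell cannot be told apart.

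Gfi1, a zinc finger repressor that acts downstream of ATOH1 in secretory cells, was near the limit everywhere. It had 1 and 9 counts in CTO19 noEGF, 2 and 4 in CTO19 EM, 2 and 1 in apsMC706 noEGF and 14 and 9 in apsMC706 EM. The libraries of CTO19 overlapped, and those of apsMC706 lay apart. Summed over libraries, the 3 counts in apsMC706 noEGF against 23 in apsMC706 EM made a level 7.67 times lower (95% counting interval 2.32 to 39.9). With no filter on low counts it passed the test in apsMC706 (adjusted p = 0.00124) and not in CTO19 (adjusted p = 0.626), and the responses differed (adjusted p = 0.0133). Its exons share 101 bases with A430072P03Rik on the other strand, a transcript not analysed here.

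Spdef, an ETS factor that drives goblet cell maturation, moved in the line in which Atoh1 was at the limit. It had 1.1 and 1.32 CPM in CTO19 noEGF and 0.203 and 0.169 CPM in CTO19 EM, with no overlap. It was 6.45-fold higher in noEGF (2.69 on the log2 scale, SE 0.382, adjusted p = 2.94e-06). In apsMC706 it had 4.28 and 4.81 CPM in noEGF and 4.34 and 4.93 CPM in EM. Those libraries overlapped, and the interval of the log2 fold change ran from -0.33 to 0.27 (95%, adjusted p = 0.892). The responses differed between the lines (CTO19 minus apsMC706 2.72 on the log2 scale, SE 0.407, adjusted p = 1.18e-05). Even so, Spdef stayed lower in CTO19 noEGF than in either medium of apsMC706. Over both lines it did not pass (adjusted p = 0.169), though it did with the Wald test of DESeq2 (adjusted p = 0.0391).

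Creb3l1, a membrane-bound factor released by cleavage that raises genes of the secretory pathway, was the factor with the highest level per kb of exon in apsMC706. It had 65.2 and 69.4 CPM in noEGF and 40.3 and 36.0 CPM in EM there, and rose 1.76-fold (log2 fold change 0.82, SE 0.0600, adjusted p = 1.3e-08). In CTO19 it had 0.323 and 0.298 CPM in noEGF and 0.232 and 0.281 CPM in EM, which did not overlap but came to 12, 12, 8 and 10 counts. That difference did not pass (log2 fold change 0.27, 95% interval -0.60 to 1.14, adjusted p = 0.595), and neither did the difference of the responses (adjusted p = 0.311).

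Among the factors, Atoh1 fell in apsMC706, as did Gfi1 when tested without the filter, Spdef rose in CTO19, and Creb3l1 rose in apsMC706. The difference of the responses passed for Spdef. It did not pass for Creb3l1, as given above, or for Atoh1 (3.18 on the log2 scale, 95% interval -0.87 to 7.22, adjusted p = 0.261), so a difference between the lines was not shown for these.

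Agr2, a disulphide isomerase of the endoplasmic reticulum that mucin folding needs, rose in both lines. It had 6.89 and 8.32 CPM in CTO19 noEGF and 2.78 and 3.29 CPM in CTO19 EM, a 2.51-fold rise (log2 fold change 1.33, SE 0.135, adjusted p = 1.36e-06). It had 170.0 and 164.0 CPM in apsMC706 noEGF and 70.1 and 63.1 CPM in apsMC706 EM, also 2.51-fold (log2 fold change 1.33, SE 0.0626, adjusted p = 1.03e-09). No noEGF library overlapped an EM library of its line. The 95% interval of the difference between the responses ran from -0.33 to 0.32 on the log2 scale (adjusted p = 1.00). Agr2 had the highest level per kb of exon among the 10 genes in 3 of the 4 groups, with 5.89 ± 0.786 CPM per kb in CTO19 noEGF, 130.0 ± 3.25 in apsMC706 noEGF and 51.6 ± 3.81 in apsMC706 EM (SD, n = 2 each).

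Tff3, the trefoil peptide of goblet cells, rose in apsMC706. It had 19.4 and 17.1 CPM in noEGF and 5.48 and 5.77 CPM in EM, which lay apart, and the rise was 3.24-fold (log2 fold change 1.70, SE 0.101, adjusted p = 1.11e-09). In CTO19 it had 2 and 3 counts in noEGF and 1 and 1 in EM, all at or under the limit. The rise over both lines (log2 fold change 1.66, adjusted p = 0.000152) rests on apsMC706. In apsMC706, then, Agr2 and Tff3 rose where Atoh1 fell.

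Muc1, a membrane mucin whose cytoplasmic tail is phosphorylated by receptor kinases including the EGF receptor, rose in both lines. It had 10.1 and 15.1 CPM in CTO19 noEGF and 1.85 and 1.71 CPM in CTO19 EM, a 7.08-fold rise (log2 fold change 2.82, SE 0.232, adjusted p = 7.15e-07). It had 8.29 and 8.77 CPM in apsMC706 noEGF and 0.265 and 0.409 CPM in apsMC706 EM, a 25.2-fold rise (log2 fold change 4.65, SE 0.433, adjusted p = 1.8e-07). Neither line's media overlapped, and the response was smaller in CTO19 (difference -1.83, SE 0.492, adjusted p = 0.00557). The lines were 5.27-fold apart in EM (log2 fold change 2.40, adjusted p = 0.000336) and 1.48-fold apart in noEGF (0.57, adjusted p = 0.00905), higher in CTO19 both times. The call in noEGF was lost without replicate 1 of apsMC706 noEGF (adjusted p = 0.0575) or replicate 2 of CTO19 noEGF (0.228), the library with 15.1 CPM.

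Muc13, a membrane mucin of the intestinal brush border, had the widest range in apsMC706 among the genes read above the limit in both media. It had 62.7 and 65.1 CPM in noEGF and 2.28 and 1.44 CPM in EM, and rose 34.2-fold (log2 fold change 5.10, SE 0.321, adjusted p = 6.52e-06). In CTO19 it had 13 and 45 counts in noEGF and 8 and 1 in EM, or 0.350 and 1.12 CPM against 0.232 and 0.0281 CPM. The media did not overlap, but the libraries within each spread widely, and the rise did not pass (log2 fold change 2.51, 95% interval -0.45 to 5.48, adjusted p = 0.0651). It passed with no filter on low counts (adjusted p = 0.0437), with DESeq2's Wald test (0.0148) and without replicate 1 of CTO19 noEGF (0.000855). The difference of the responses did not pass (-2.58, adjusted p = 0.202), except without replicate 2 of CTO19 noEGF (0.00971). The exons of Muc13 share 184 bases with the antisense transcript Gm15657, which was not analysed here.

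Muc4 and Muc20 had the reverse distribution, high in CTO19 and near 0 in apsMC706 EM. Muc4, whose protein binds the receptor ERBB2 in rat and human cells, had 8.64 and 8.72 CPM in CTO19 noEGF and 10.2 and 4.78 CPM in CTO19 EM. These overlapped and did not pass (log2 fold change 0.22, 95% interval -0.62 to 1.05, adjusted p = 0.593); without replicate 1 of CTO19 EM the value was 0.86 (adjusted p = 0.000291), and without replicate 2 it was -0.23. In apsMC706 it had 49 and 62 counts in noEGF and 0 and 1 in EM, a count ratio of 111.0 (95% counting interval 19.5 to 4420.0). The rise in apsMC706 passed (adjusted p = 0.00812), as did the difference of the responses (adjusted p = 0.0165). The first call was lost without replicate 1 of apsMC706 EM (0.0522) or without either CTO19 noEGF library (0.0661 and 0.0652), and the second without either apsMC706 EM library or either CTO19 noEGF library (0.0653 to 0.106).

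Muc20, a smaller membrane mucin, had 15.8 and 15.2 CPM in CTO19 noEGF and 20.2 and 18.6 CPM in CTO19 EM. The media lay apart, and Muc20 fell 1.25-fold (log2 fold change -0.33, SE 0.0832, adjusted p = 0.00286). In apsMC706 it had 12 and 13 counts in noEGF and 1 and 0 in EM, a count ratio of 25 (4.09 to 1030.0), and the rise passed (adjusted p = 6.46e-05). The responses thus ran in opposite directions and differed (adjusted p = 4.49e-05). Over both lines neither Muc4 (adjusted p = 0.185) nor Muc20 (adjusted p = 0.767) passed, though Muc4 did with DESeq2's Wald test (0.0341).

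**Figure D2:**
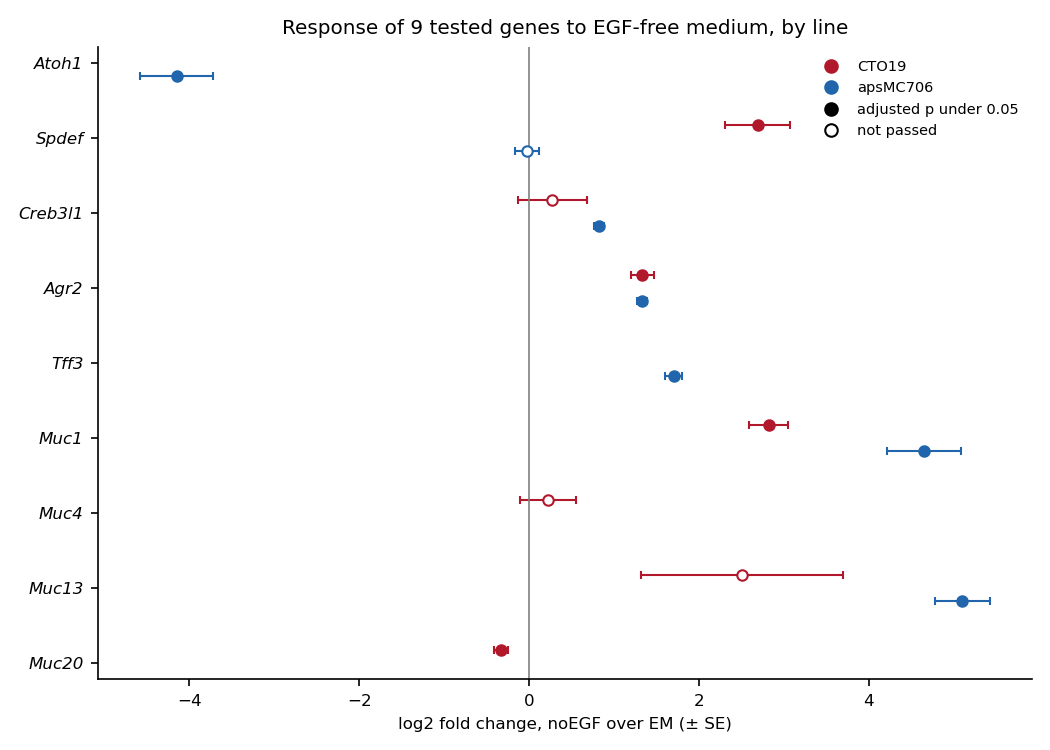
Log2 fold change of noEGF over EM with its SE in CTO19 and in apsMC706 for the tested genes; filled points passed at an adjusted p under 0.05. Genes with both libraries of a group at or under 3 counts are not drawn for that line (Atoh1 and Tff3 in CTO19, Muc4 and Muc20 in apsMC706); Agr2 stood at 1.33 in both lines, Spdef at 2.69 in CTO19 and -0.03 in apsMC706.

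Between the lines, all 9 tested genes passed in each medium. In EM, 3 were higher and 6 lower in CTO19 than in apsMC706, against 71.3% of all tested genes (37.5% higher and 33.8% lower). In noEGF the counts were again 3 higher and 6 lower, against 80.0% (45.7% higher and 34.3% lower). Muc1, Muc4 and Muc20 were the higher ones and Atoh1, Spdef, Creb3l1, Agr2, Tff3 and Muc13 the lower ones in both media. The part of the squamous markers in these differences was not tested.

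In EM the mean level of Creb3l1 was 0.256 ± 0.0349 CPM in CTO19 and 38.1 ± 3.09 CPM in apsMC706 (SD, n = 2 each), 147.0-fold lower (-7.20 on the log2 scale, SE 0.310, adjusted p = 2.18e-15). In noEGF it was 215.0-fold lower (-7.75, SE 0.269, adjusted p = 2.3e-16). Agr2 was 21.9-fold lower in CTO19 in each medium (adjusted p = 3.1e-13 in EM and 3.76e-14 in noEGF). Spdef was 24.6-fold lower in EM (adjusted p = 2.91e-10) and 3.74-fold lower in noEGF (adjusted p = 7.25e-08). Both mucus genes and all of the tested factors were therefore lower in CTO19.

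Tff3 had 2 counts in CTO19 EM against 419 in apsMC706 EM, 197.0 times lower (95% counting interval 54.3 to 1630.0). Its 5 counts in CTO19 noEGF stood against 1358 in apsMC706 noEGF, 282.0 times lower (121.0 to 870.0). Atoh1 had 2 counts in CTO19 EM against 270 in apsMC706 EM, 127.0 times lower (34.8 to 1050.0). Of these low genes, Tff3 and Atoh1 passed in both media (adjusted p between 4.48e-14 and 0.00343). Both passed the filter on low counts through apsMC706 alone, so they could only come out lower in CTO19.

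Muc20 had 1361 counts in CTO19 EM against 1 in apsMC706 EM, a ratio of 1450.0 (95% counting interval 259.0 to 57200.0), and was 45.7-fold higher in noEGF, or 5.51 on the log2 scale (SE 0.256, adjusted p = 1.43e-13). Muc4 had 522 counts in CTO19 EM against 1 in apsMC706 EM, a ratio of 555.0 (99.1 to 21900.0), and was 5.82-fold higher in noEGF (2.54, SE 0.449, adjusted p = 0.0019). Muc13 ran the other way. It was 14.2-fold lower in CTO19 in EM (-3.83, SE 1.14, adjusted p = 0.00579) and 85.0-fold lower in noEGF (-6.41, SE 0.461, adjusted p = 2.87e-06). The EM difference of Muc13 was lost without replicate 2 of CTO19 EM (adjusted p = 0.0516), the library with 1 count.

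These 3 mucins lie on chromosome 16 of mm10 within 1084 kb, from the start of Muc4 (chr16:32735886-32782391, plus strand) over Muc20 (chr16:32777419-32797435, minus) to Muc13 (chr16:33794037-33819934, plus). Muc4 and Muc20 overlap at their 3′ ends and share 627 exon bases, 5.33% of those of Muc4 and 15.6% of those of Muc20, and the library kit does not mark strand. Reads from the shared bases cannot be told apart, so the 2 genes may share part of their counts. Of the 13 other tested genes between Muc4 and Muc13, 10 differed by less than 1 on the log2 scale between the lines in EM. The 3 with differences of at least 2 were Smbd1, Slc12a8 and Heg1. Smbd1, next to Muc20, averaged 0.0124 and 0.014 CPM in CTO19 noEGF and EM and 0.863 and 0.321 CPM in apsMC706 noEGF and EM. It was thus lower in CTO19, unlike Muc4 and Muc20. Heg1, which codes for a mucin-like membrane protein, averaged 3.26 and 3.75 CPM in CTO19 noEGF and EM and 0.995 and 0.161 CPM in apsMC706 noEGF and EM, higher in CTO19 like Muc4 and Muc20. Slc12a8, a solute carrier, averaged 0.443 and 0.1 CPM in CTO19 noEGF and EM and 17.9 and 4.6 CPM in apsMC706 noEGF and EM, lower in CTO19 like Muc13.

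**Figure D3:**
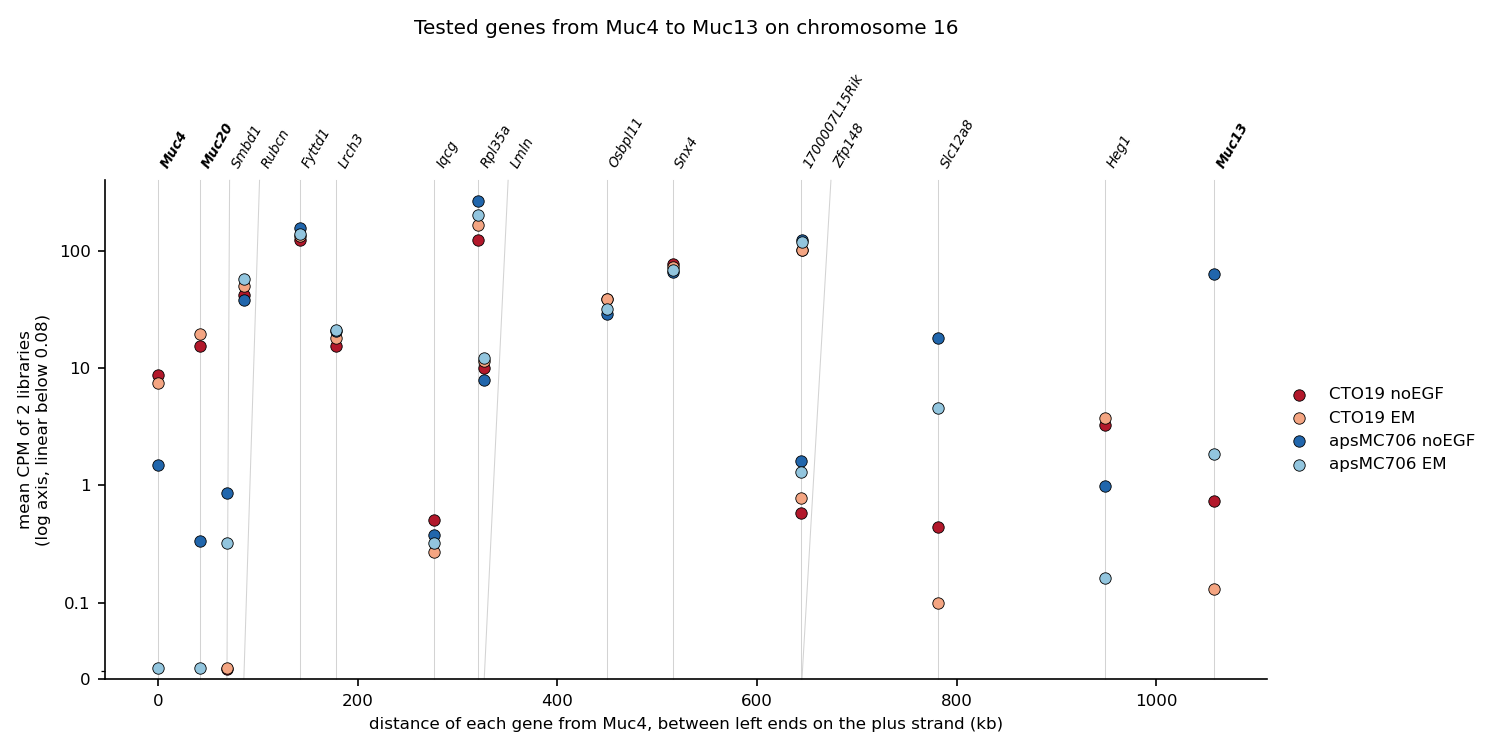
Mean CPM of 2 libraries per group (log axis, linear below 0.08) for the 16 tested genes from Muc4 to Muc13, by distance in kb. Muc4, Muc20 and Heg1 were higher in CTO19, Smbd1, Slc12a8 and Muc13 in apsMC706, and most genes between them had similar levels in the 4 groups.

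Across 11 mucin genes, taken from the 10 genes and the list of other mucins and without Muc2, the mixture per kb of exon differed by line and medium. Shares below are of the sum of these 11. The sum was 19.1 and 20.8 CPM per kb in CTO19 noEGF, 9.24 and 7.74 in CTO19 EM, 24.6 and 25.5 in apsMC706 noEGF and 1.22 and 1.01 in apsMC706 EM. Each noEGF sum was above every EM sum. In CTO19 noEGF, Muc15, a membrane mucin outside the 10 genes, took 49.6 and 43.1%, Muc1 22.6 and 31.0% and Muc20 20.6 and 18.1% of the sum. In CTO19 EM, Muc20 took 54.3 and 59.8% and Muc15 21.1 and 21.8%. In apsMC706 noEGF, Muc13 took 84.0 and 83.9% and Muc1 14.4 and 14.7%. In apsMC706 EM, Muc13 took 61.2 and 46.9%, and Muc5ac, a secreted mucin of the stomach and airway, 22.5 and 25.2%. Muc4, with 11.8 kb of exon, took at most 9.38% in any library, in CTO19 EM. Shares within a library describe these transcripts and were not tested.

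**Figure D4:**
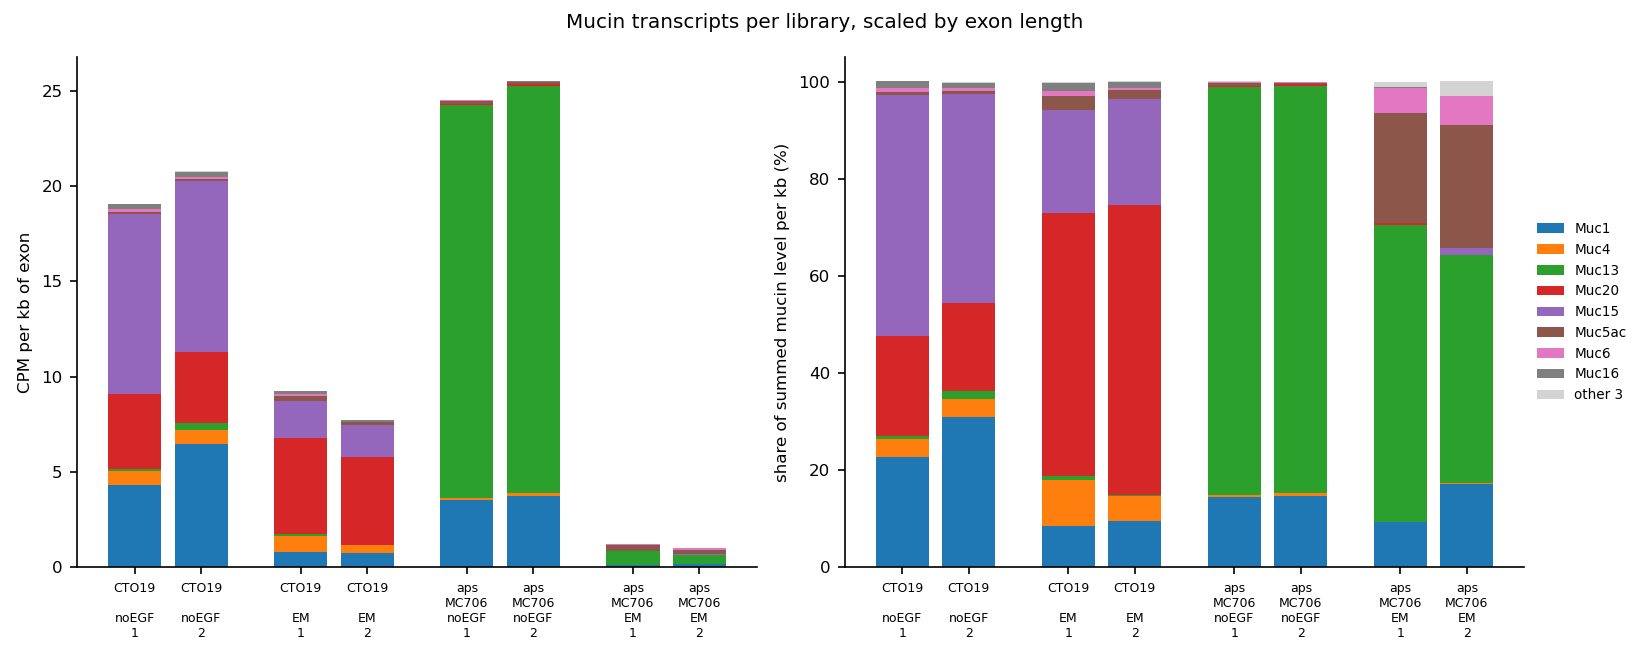
Summed level of the 11 mucin genes (Muc2 not included) in CPM per kb of exon (left) and share of each in percent (right) for every library. Muc13 filled 84.0 and 83.9% of the sum in apsMC706 noEGF, and Muc15, Muc1 and Muc20 most of it in CTO19 noEGF.

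The remaining genes of the mucus pathway were followed as lists. Of 16 tested goblet cell product genes (of 27 listed, 26 in the table), 8 were higher and 2 lower in noEGF over both lines, with a median log2 fold change of 1.1. Of all tested genes 25.5% were higher and 23.3% lower, with a median of 0.03. In CTO19, 9 rose and 2 fell, and in apsMC706 7 rose and 3 fell. Of all tested genes, 34.7% rose and 33.3% fell in CTO19, and 34.1% rose and 33.1% fell in apsMC706. Itln1, an intelectin that binds microbial glycans, had 0.538 and 1.66 CPM in CTO19 noEGF, 0.318 and 0.450 in CTO19 EM, 202.0 and 223.0 in apsMC706 noEGF and 11.2 and 10.3 in apsMC706 EM, and rose (log2 fold change 3.75, adjusted p = 0.00167). Clca1, a mucus protease of goblet cells, rose 3.40-fold (adjusted p = 0.0015), with 3.98 and 5.64 CPM in CTO19 noEGF, 1.27 and 1.18 in CTO19 EM, 1.06 and 1.69 in apsMC706 noEGF and 0.344 and 0.626 in apsMC706 EM. Spink4, a protease inhibitor of goblet cells, rose 3.47-fold (adjusted p = 0.00842), at no more than 1.06 CPM in any library. Spink4 passed the filter on low counts through apsMC706 noEGF alone, so it could only come out higher there. Slc12a8 also rose (3.97-fold, adjusted p = 0.00126), while Nans, which makes sialic acid, fell 1.31-fold (adjusted p = 0.00257) and Ern2, an endoplasmic reticulum stress sensor of mucous cells, fell 2.05-fold (adjusted p = 0.037). The call of Ern2 was lost without either library of apsMC706 EM or of apsMC706 noEGF or without replicate 2 of CTO19 noEGF (adjusted p = 0.0537 to 0.113), and with the replicate number as a block (0.0573). Klk1, a kallikrein, had the smallest p for a difference of the responses, which was -2.86 on the log2 scale (adjusted p = 3.28e-07).

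The goblet list is not made of goblet genes alone, since Itln1 is also made by Paneth cells. Of 15 Paneth markers, 4 were tested and 4 rose over both lines, against 25.5% of all tested genes. They were Itln1, Mmp7, Pla2g2a and Reg3g. All 4 rose in apsMC706, while in CTO19 Mmp7 alone passed (adjusted p = 6.09e-05), and the responses of all 4 differed, lower in CTO19. Of all tested genes, 34.1% rose in apsMC706 and 34.7% in CTO19, and 25.6% had a lower response in CTO19. Reg3g had 0 and 0 counts in CTO19 noEGF and 0 and 1 in CTO19 EM. In apsMC706 it had 3.98 and 4.36 CPM in noEGF and 0 in both EM libraries. Reg3g passed the filter on low counts through apsMC706 noEGF alone, so it could only come out higher there. Reg3g did not pass with DESeq2's Wald test (adjusted p = 0.263), nor Pla2g2a without either apsMC706 EM library (0.086 and 0.0769). The summed level of the 15 markers was 84.2 to 106.0 CPM in CTO19 noEGF, 18.6 to 21.9 in CTO19 EM, 1010.0 to 1070.0 in apsMC706 noEGF and 58.5 to 61.5 in apsMC706 EM. Mmp7 made up most of each sum, with 105.0 and 81.2 CPM in CTO19 noEGF and 772.0 and 808.0 in apsMC706 noEGF. Of the 15 markers, 8, among them Lyz2, Defa24 and Defa30, were at or under 3 counts in every library. Summed absorptive markers also stood higher in noEGF, at 336.0 to 377.0 CPM in CTO19 noEGF, 170.0 to 171.0 in CTO19 EM, 949.0 to 965.0 in apsMC706 noEGF and 737.0 to 756.0 in apsMC706 EM. Much of that rise was in Ceacam1 alone. It had 238.0 and 271.0 CPM in CTO19 noEGF, 124.0 and 119.0 in CTO19 EM, 434.0 and 422.0 in apsMC706 noEGF and 230.0 and 220.0 in apsMC706 EM. Over both lines, 5 of 10 tested absorptive genes were higher and 0 lower, against 25.5% and 23.3% of all tested genes. Fabp1 and Apoa4 were at 0 in all libraries. The part of these cell types in the values of the mucus genes was not tested.

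Of 7 tested mucin genes outside the 10 members (of 17 listed, 13 in the table), 4 rose and 1 fell over both lines, against 25.5% and 23.3% of all tested genes. In CTO19, 5 rose and 1 fell, against 34.7% and 33.3% of all tested genes. In apsMC706 2 rose, 1 fell and 4 did not pass, where 34.1% of all tested genes rose and 33.1% fell. Muc15 had 33.7 and 32.0 CPM in CTO19 noEGF and 6.98 and 6.01 in CTO19 EM, with at most 0.0545 CPM in any apsMC706 library, and rose (log2 fold change 2.25, adjusted p = 0.00137). Muc16, a large mucin of wet surface epithelia, rose 1.94-fold (adjusted p = 0.0335), with 6.62 and 5.57 CPM in CTO19 noEGF and 4.02 and 2.36 in CTO19 EM and near 0 in apsMC706. That call was lost without either apsMC706 noEGF library, either CTO19 noEGF library or replicate 2 of CTO19 EM (adjusted p = 0.0521 to 0.137). Muc5ac fell 2.19-fold (adjusted p = 0.0143), with 1.40 and 1.04 CPM in CTO19 noEGF, 2.81 and 1.57 in CTO19 EM, 1.39 and 0.740 in apsMC706 noEGF and 2.96 and 2.75 in apsMC706 EM. The other risers were Cd164l2 and the sialomucin Cd164, whose call was lost without any 1 of the 4 apsMC706 libraries (adjusted p = 0.0665 to 0.0812) and with the replicate block (0.0502). Cd164l2 passed the filter on low counts through noEGF groups alone, so it could only come out higher in noEGF. Muc15 and Muc16 were at or under 3 counts in every apsMC706 library. The difference of the responses passed for neither of them (adjusted p = 0.23 and 0.816).

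Of 35 tested regulators of secretory fate (of 42 listed), 12 rose and 1 fell over both lines, against 25.5% and 23.3% of all tested genes. In CTO19, 21 rose and 5 fell (median log2 fold change 0.47), against 34.7% and 33.3% of all tested genes. In apsMC706 13 rose and 10 fell (median 0.01), against 34.1% and 33.1%. Notch3, a Notch receptor, had 86.7 and 100 CPM in CTO19 noEGF, 27.6 and 27.1 in CTO19 EM, 6.74 and 7.32 in apsMC706 noEGF and 0.212 and 0.191 in apsMC706 EM, and rose 6.61-fold (adjusted p = 0.00511). Elf3, an ETS factor of epithelia, rose 1.49-fold (adjusted p = 0.00818), and Creb3, of the same family as Creb3l1, rose 1.55-fold (adjusted p = 0.0008). Sox17 rose (log2 fold change 3.27, adjusted p = 0.00177) but was at 0 counts in all apsMC706 libraries. Insm1, an endocrine factor, was the one that fell, with 0.0807 and 0.124 CPM in CTO19 noEGF, 0.0579 and 0 in CTO19 EM, 27 and 25.7 in apsMC706 noEGF and 85.4 and 83.7 in apsMC706 EM (log2 fold change -1.49, adjusted p = 0.0102). It did not pass with DESeq2's Wald test (adjusted p = 0.303) or without either apsMC706 noEGF library (0.0546 and 0.058). Insm1, like Atoh1, thus had its highest level in apsMC706 EM. Foxa1, a factor active in goblet cells, had opposite responses. It had 269.0 and 266.0 CPM in CTO19 noEGF against 124.0 and 125.0 in CTO19 EM, and 203.0 and 204.0 CPM in apsMC706 noEGF against 338.0 and 329.0 in apsMC706 EM (difference 1.82, adjusted p = 4.32e-12).

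The general machinery of the endoplasmic reticulum and Golgi, which mucins share with all secreted proteins, had different counts in the lines. Of 29 tested genes, 7 rose and 20 fell in CTO19, while 22 rose and 4 fell in apsMC706. Of all tested genes, 34.7% rose and 33.3% fell in CTO19, and 34.1% rose and 33.1% fell in apsMC706. Median log2 fold changes were -0.29 and 0.37, where those of all tested genes were 0.02 and 0.00. The responses differed for 27 of the 29, lower in CTO19 for 24 and higher for 3, where 56.0% of all tested genes passed that test. Hspa5, the main chaperone of the endoplasmic reticulum, had 453.0 and 433.0 CPM in CTO19 noEGF against 687.0 and 721.0 in CTO19 EM, and 1240.0 and 1200.0 CPM in apsMC706 noEGF against 647.0 and 632.0 in apsMC706 EM (difference -1.60, adjusted p = 3.28e-11). Agr2, which works in the same compartment, rose in both lines. Golga2, a Golgi matrix protein, rose over both lines (1.49-fold, adjusted p = 0.0029), as did Creb3l2 (1.61-fold, adjusted p = 0.0119), and Ssr1, of the translocon, fell 1.46-fold (adjusted p = 0.0113). Ssr1 did not pass without either CTO19 noEGF library (0.0748 and 0.0723).

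Of 32 tested genes of mucin-type O-glycosylation (of 38 listed), 8 rose and 2 fell over both lines, and the median log2 fold change was -0.07. Over both lines fewer of them passed than the 48.8% of all tested genes (25.5% higher and 23.3% lower). In CTO19, 12 rose and 13 fell, and in apsMC706 15 rose and 7 fell. Of all tested genes, 68.0% passed in CTO19 (34.7% higher and 33.3% lower) and 67.2% in apsMC706 (34.1% higher and 33.1% lower). The share that passed was thus not below that of all tested genes within either line. Fut2, the fucosyltransferase that makes the H antigen on mucins, had 39.3 and 49.4 CPM in CTO19 noEGF, 22.4 and 23.6 in CTO19 EM, 79.3 and 78.8 in apsMC706 noEGF and 47.3 and 48.3 in apsMC706 EM, and rose 1.78-fold (adjusted p = 0.000391). St3gal4, a sialyltransferase, rose 1.55-fold (adjusted p = 0.00188), as did Galnt11 (1.55-fold, adjusted p = 0.00499) and Galnt6 (2.20-fold, adjusted p = 0.00632), which start O-glycan chains. St3gal6 (1.58-fold, adjusted p = 0.000801) and Galnt12 (1.64-fold, adjusted p = 0.00783) fell. St3gal2 went in opposite directions, with 32.8 and 28.7 CPM in CTO19 noEGF against 64.7 and 66.1 in CTO19 EM, and 24.9 and 26.8 CPM in apsMC706 noEGF against 6.38 and 6.37 in apsMC706 EM (difference -3.11, adjusted p = 1.59e-11).

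Of 20 tested genes that cleave, anchor or partner membrane mucins (of 22 listed), 12 rose and 3 fell over both lines, against 25.5% and 23.3% of all tested genes. In CTO19, 13 rose and 4 fell, against 34.7% and 33.3% of all tested genes. In apsMC706 12 rose and 4 fell, against 34.1% and 33.1%. Erbb3, a receptor of the EGF receptor family, had 154.0 and 161.0 CPM in CTO19 noEGF, 68.9 and 66.5 in CTO19 EM, 193.0 and 191.0 in apsMC706 noEGF and 81.7 and 81.8 in apsMC706 EM, and rose 2.34-fold (adjusted p = 2e-05). The protease inhibitors Spint1 (2.06-fold, adjusted p = 0.000166) and Spint2 (1.62-fold, adjusted p = 0.000434) and the protease Mmp7 (8.98-fold, adjusted p = 0.000626) rose. The ones that fell were Rdx (2.77-fold, adjusted p = 0.00943) and Msn (2.06-fold, adjusted p = 0.00948), which tie membrane proteins to actin, and Adam17 (1.19-fold, adjusted p = 0.0284), a sheddase. Msn did not pass without replicate 1 of CTO19 noEGF (adjusted p = 0.0517), nor Adam17 without any 1 of the 4 apsMC706 libraries (0.0746 to 0.0864) or with the replicate block (0.054). Of 16 tested genes of mucus release and cytokine input, 5 rose and 3 fell over both lines, against 25.5% and 23.3% of all tested genes. In CTO19, 9 rose and 5 fell, and in apsMC706 8 rose and 5 fell, with the shares of all tested genes in each line as given above (34.7% and 33.3%, 34.1% and 33.1%). Slc4a4, a bicarbonate carrier, rose 3.60-fold (adjusted p = 0.000293) and Rab3d, of secretory granules, 1.53-fold (adjusted p = 0.00115), while Il17ra, an interleukin receptor, fell 1.47-fold (adjusted p = 0.00128).

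**Figure D5:**
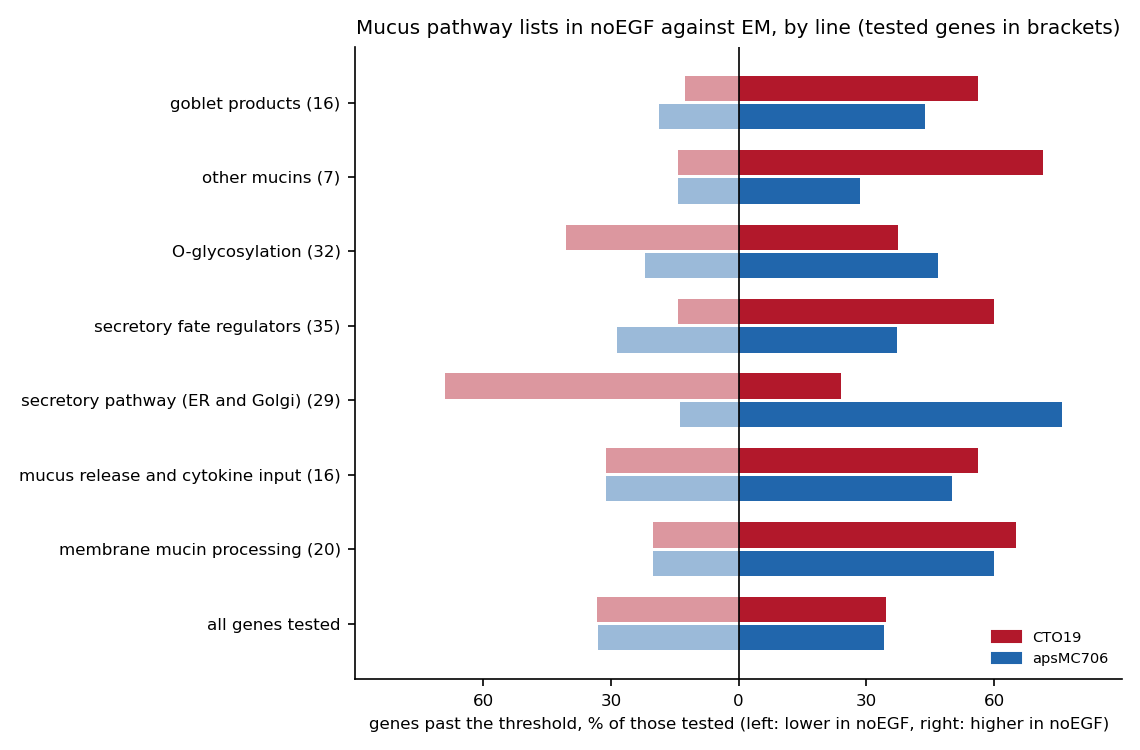
Share of the tested genes of each mucus pathway list that passed as higher (right) or lower (left) in noEGF, in CTO19 and apsMC706, with all tested genes at the bottom. In the secretory pathway list 20 of 29 genes fell in CTO19 and 22 of 29 rose in apsMC706.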

How the data were processed

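Raw counts per gene were deposited by the authors, who aligned reads with STAR 2.7.0a to mm10 per the submitters' processing notes. The counting program, its strand setting and the annotation release were not given in the sources used here. Identifiers were matched to GENCODE M21 (32680 found, 48 not), and promoter sequences came from RefSeq on GRCm38.p6.

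The tests were run with edgeR 4.0.16 under R 4.3.3 (TMM scaling, filterByExpr on the 4 groups, robust quasi-likelihood F-tests, two-sided, Benjamini-Hochberg adjustment over 16719 genes, threshold 0.05). The comparison over both lines used terms for line and medium. All others used the 4 group means, whose libraries share 1 estimate of spread. The comparisons therefore share libraries. SE and 95% intervals come from the fitted weights and moderated dispersion. Count ratios scale summed counts by library size and have exact 95% intervals. These intervals and the limit of 3 counts reflect counting error alone, as the labels name no molecular identifiers and PCR copies are not independent molecules. Alternatives were upper-quartile factors, the size factors of DESeq2, no filter, the Wald test of DESeq2 1.42.0, the replicate number as a block, summed libraries and each library left out. The models were tested on simulated data, drawn for all genes at the common spread of the 4 group means. For the comparison over both lines, the planted changes were the same in both lines. The simulation thus leaves out differing responses of the lines and spread that varies by gene.

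The 10 genes and the lists were chosen with earlier results of these data known. All 10 are named, with up to 4 list genes per direction of smallest p over both lines, and the list gene of smallest p for the difference of the responses. Smbd1 and Heg1 were named after their values were seen. Correlations between same-numbered libraries' deviations, across genes, were -0.00825 to 0.0485, so the numbers were not used as pairs.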

Additional observations from a re-analysis of the deposited data

Results flagged for a closer look

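The response to noEGF differed between CTO19 and apsMC706 by the test of the difference itself (edgeR, adjusted p, CTO19 minus apsMC706 on the log2 scale) in 4 of the 9 tested genes. The difference was 2.72 for Spdef (adjusted p = 1.18e-05), with CTO19 higher in noEGF in 2 of 2 libraries and the libraries of apsMC706 overlapping. It was -1.83 for Muc1 (adjusted p = 0.00557), which was higher in noEGF in 2 of 2 libraries in each line. It was -4.66 for Muc20 (adjusted p = 4.49e-05), lower in noEGF in CTO19 and higher in apsMC706. For Muc4 it was -6.26 (adjusted p = 0.0165). The sizes for Muc4 and Muc20 rest on 1 count over both apsMC706 EM libraries and depend on the fit, and they are no bound. Groups of 2 libraries are too small to look for a library that stands apart.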

How the results depend on the processing

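Over the alternatives (2 other scalings, no filter, DESeq2's Wald test, the replicate block, summed libraries and each library left out), 673 of the values for the members kept their direction and side of the threshold, 16 lost and 7 gained a call, and 15 changed sign. With the 2 libraries of every group summed, which leaves 1 residual degree of freedom, 0 of the 9 members and 0 of 16719 genes passed over both lines with edgeR, against 5 members and 2809 genes at an unadjusted p under 0.05; the lowest adjusted p of a member was 0.133. The log2 fold change of Spdef in apsMC706 was 0.03 with DESeq2 size factors and with DESeq2's Wald test, 0.05 with upper-quartile factors and 0.04 with no filter, and -0.13 to 0.06 without 1 library. Without 1 library, the difference of the responses of Agr2 was -0.23 to 0.13, the change in CTO19 was -3.20 to 2.28 for Atoh1 and -0.23 to 0.86 for Muc4, and that of Muc20 over both lines was -0.00 to 0.53. With the replicate number as a block, 6988 genes passed over both lines, against 8157, with 6 of 9 members in both, and no call of a member changed. Depth limits what can be said of Atoh1 and Tff3 in CTO19, Gfi1 in both lines, and Muc4 and Muc20 in apsMC706 EM, where libraries held few or no counts.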

Other observations

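Of 14 enteroendocrine markers 2 were tested, and both were higher over both lines, against 25.5% of all tested genes. Another 9 were at or under 3 counts in every library. Pyy passed the filter on low counts through apsMC706 noEGF alone, so it could only come out higher there. The 2 calls are thus no result about the list. Nts, the gene of the gut peptide neurotensin, had 428.0 and 361.0 CPM in CTO19 noEGF and 4.4 and 4.41 CPM in CTO19 EM, against at most 0.185 CPM in any apsMC706 library, and rose over both lines (edgeR log2 fold change 6.26, adjusted p = 0.000306). Pyy, the gene of peptide YY, had 0.627 and 0.449 CPM in apsMC706 noEGF, was at 0 in both apsMC706 EM libraries and in all CTO19 libraries, and passed over both lines (edgeR adjusted p = 0.0104). It came to 23 and 17 counts, and did not pass with DESeq2's Wald test (adjusted p = 0.199) or with the libraries of each group summed (0.173). Neurod1 and Gcg were at 0 in all libraries. Of 7 tested tuft cell markers, 2 rose and 2 fell over both lines, against 25.5% and 23.3% of all tested genes. Dclk1, a kinase that marks tuft cells, had 3.09 and 3.48 CPM in CTO19 noEGF, 11.5 and 11 in CTO19 EM, 19.3 and 19.2 in apsMC706 noEGF and 40.7 and 43.1 in apsMC706 EM, and fell 2.69-fold (edgeR adjusted p = 0.000314). Ptgs1 also fell (2.16-fold, edgeR adjusted p = 0.0146). The 2 that rose were Sh2d6 (17.2-fold, edgeR adjusted p = 0.00291), at no more than 0.982 CPM in any library, and Gfi1b (3.02-fold, edgeR adjusted p = 0.00946), at no more than 1.81 CPM. Sh2d6 passed the filter on low counts through apsMC706 noEGF alone, so it could only come out higher there.

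Of 9 tested genes of gastric and respiratory mucous cells, 3 rose and 1 fell over both lines, against 25.5% and 23.3% of all tested genes. Gkn3, of mucous neck cells in the mouse stomach, had 31.1 and 32.1 CPM in apsMC706 noEGF and 0.450 and 0.735 CPM in apsMC706 EM, with at most 0.174 CPM in any CTO19 library. It rose over both lines (edgeR log2 fold change 5.72, adjusted p = 7.31e-05), beside a lower Muc5ac. These values were not used in the comparisons of the mucus genes.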
